A study of Mus musculus with 28 samples.

Results

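C-type lectin receptors are cell surface proteins with a C-type lectin-like domain, and the genes for 7 of them were followed here through murine bone marrow-derived macrophages (BMDMs) exposed to von Willebrand factor (VWF) or to bacterial lipopolysaccharide (LPS). The 7 genes, Clec4e, Clec4d, Clec4n, Clec7a, Clec5a, Clec12a and Clec2d, were taken as a named list and matched by gene symbol to 7 of the 54532 Ensembl genes of the count table. All 7 reached 10 TPM (transcript abundance corrected for gene length) in at least 1 culture of every comparison, so none was lost to the filter on low values. The study asked how VWF, the plasma protein that tethers platelets, changes the macrophage transcriptome, with LPS as a second stimulus. Bulk RNA sequencing was done on 28 cultures, of which 5 control, 5 VWF and 4 LPS cultures were taken at each of 3.5 h and 16 h. Control cultures received PBS, VWF cultures received human plasma-derived VWF (pd-VWF) at 10 µg/ml, and LPS cultures received LPS at 100 ng/ml. Every group shared the M-CSF medium before treatment and fresh medium with CaCl2 during it. The cell culture methods give the source of murine marrow as C57/B6JB mice of 8 to 12 weeks. Another passage of the methods gives a younger age range for all murine experiments, so the age is not settled. No genotype differed between the groups. The labels call the replicates biological, but how many mice they came from is not given in the sources used here, so p values measure the spread between these cultures.

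Most of the 7 receptors let myeloid cells sense microbes or damaged cells. Mincle (Clec4e), MCL (Clec4d) and Dectin-2 (Clec4n) signal through the adaptor FcRγ, encoded by Fcer1g, MDL-1 (Clec5a) pairs with DAP12, encoded by Tyrobp, and Dectin-1 (Clec7a) carries its own activating motif. These activating receptors engage the kinase Syk and, downstream of it, the CARD9, BCL10 and MALT1 complex that leads to NF-κB. MICL (Clec12a) carries an inhibitory motif that recruits the phosphatases SHP-1 and SHP-2, and Clec2d is a ligand for receptors of the NKR-P1 family on natural killer cells.

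All 7 genes lie on chromosome 6 of GRCm38. Clec4n (ENSMUSG00000023349, chr6:123229843-123247021, plus strand), Clec4d (ENSMUSG00000030144, chr6:123262111-123275265, plus strand) and Clec4e (ENSMUSG00000030142, chr6:123281789-123289870, minus strand) are direct neighbours, with gaps of 15.1 kb and 6.5 kb and no protein-coding gene between them. Clec2d (ENSMUSG00000030157, chr6:129180615-129186534, plus strand), Clec12a (ENSMUSG00000053063, chr6:129342691-129365303, plus strand) and Clec7a (ENSMUSG00000079293, chr6:129461591-129472779, minus strand) sit in a second cluster 5890.7 kb further on. Clec5a (ENSMUSG00000029915, chr6:40574894-40585821, minus strand) stands alone on the other side. No exon of the 7 genes overlapped an exon of another gene, and none of their transcripts shared a 100-base window with another gene.

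The reads of 1 culture totalled between 41131209 and 77699206 counts, with a median of 52986574. The lowest raw count of any of the 7 genes in any culture was 840, for Clec4n in an LPS culture at 3.5 h, so counting error was small beside the spread between cultures. Levels are given as CPM (counts scaled to library size, with TMM factors over all 28 cultures), and TPM, which also divides by exon length, is used wherever 1 gene is compared with another. Each comparison was tested with edgeR's quasi-likelihood test on genes with at least 10 TPM in 1 of its cultures, with Benjamini-Hochberg adjustment over all of them. A gene was called higher or lower at an adjusted p under 0.05 with a log2 fold change beyond 1 in size. The 8 macrophage markers checked (Csf1r, Adgre1, Cd68, Itgam, Mertk, Fcgr1, Lyz2 and Cd14) exceeded 1 CPM in every group, and their summed level lay between 5870 and 26000 CPM. Control replicate 5 at 16 h held the lowest sum, 5870 CPM, against 14900 to 17200 CPM in the other control cultures at 16 h, and it stood farthest from its group mean over all genes. LPS replicate 4 at 16 h, with 10000 CPM against 14500 to 14700 CPM, came next. Calls of the 7 genes that use these cultures are given with and without them, and calls of other genes only with them.

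Clec4d was the most abundant of the 7 transcripts in every group and carried 64.1% ± 3.71 (SD, n = 5) of their summed TPM in control cultures at 3.5 h. In those cultures its level was 1630 ± 200 TPM (SD, n = 5). Clec12a at 284 ± 35.6 TPM, Clec7a at 225 ± 43.2 TPM and Clec2d at 190 ± 78.6 TPM followed, all from the same 5 cultures. Clec4n stood at 108 ± 26.6 TPM, while Clec5a at 50.1 ± 11.6 TPM and Clec4e at 49.1 ± 18.2 TPM were the lowest and did not differ beyond their spread. After 3.5 h with VWF, Clec4e made up 17.2% ± 3.44 of the sum in place of 1.97% ± 0.811, and Clec2d 17.3% ± 4.36 in place of 7.41% ± 2.81 (SD, n = 5 each). After 16 h with LPS, Clec4e made up 24.3% ± 6.32 and Clec4d 39.4% ± 3.11 (SD, n = 4). Summed TPM was 2530 ± 213 in control and 4460 ± 467 in VWF cultures at 3.5 h (SD, n = 5 each), as a description without a test. At 16 h the sum was 2850 ± 120 TPM in VWF cultures (SD, n = 5), within 1 SD of the 2960 ± 303 TPM of control cultures (SD, n = 5), and LPS cultures held 4650 ± 176 TPM (SD, n = 4).

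**Figure D1:**
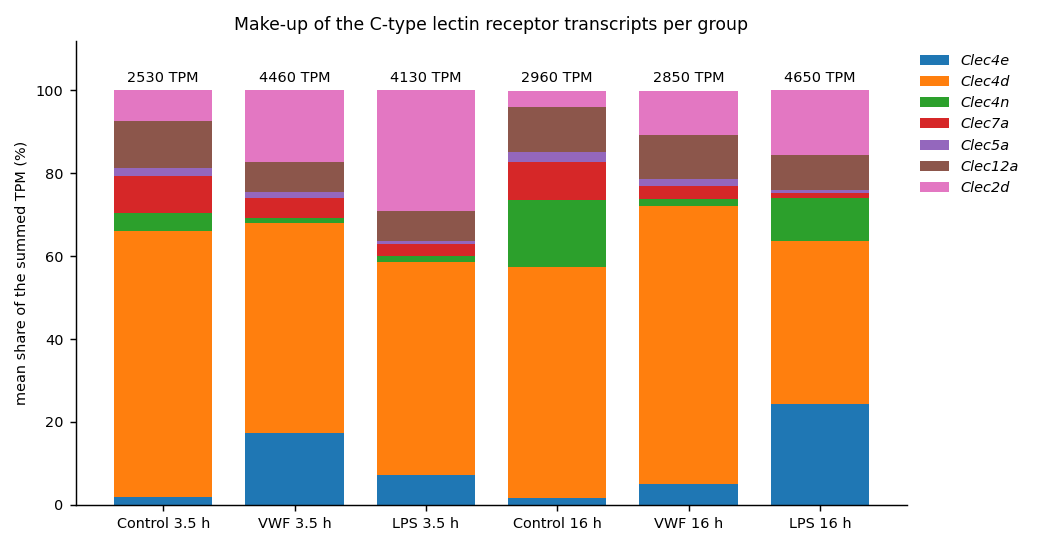
Stacked bars show the mean share of each gene (%) in the summed TPM of the 7 genes for the 6 groups, with the mean sum in TPM above each bar (n = 5 control, 5 VWF and 4 LPS cultures per time). Clec4d is the largest part in every group, and Clec4e goes from 1.97% in control to 17.2% in VWF cultures at 3.5 h and to 24.3% in LPS cultures at 16 h.

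Clec4e, the Mincle gene, had the widest range of group means. Its level was 79.6, 87.8, 46.3, 103 and 54.3 CPM in the 5 control cultures at 3.5 h. With VWF it was 1270, 1290, 1290, 1430 and 1370 CPM, and with LPS 622, 724, 842 and 746 CPM. The 3 groups did not overlap, and every VWF culture stood above every LPS culture. At 16 h, control cultures had 94.0, 93.9, 66.3, 82.5 and 40.6 CPM of Clec4e. VWF cultures had 237, 260, 338, 208 and 206 CPM, and LPS cultures had 2870, 2750, 2850 and 2160 CPM. The order of the stimuli was thus the opposite at 16 h, with every LPS culture above every VWF culture and both above control. Over the 6 groups the mean level ran from 2660 ± 334 CPM (SD, n = 4, LPS at 16 h) down to 74.2 ± 23.5 CPM (SD, n = 5, control at 3.5 h), a range of 35.8-fold. Only the control groups at the bottom of this order overlapped with each other.

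Clec4d, whose protein MCL forms a complex with Mincle, had a high level throughout and a narrow range. At 3.5 h the control cultures had 794, 916, 1010, 603 and 729 CPM, the VWF cultures 998, 1430, 1670, 1440 and 1030 CPM, and the LPS cultures 1690, 1500, 1790 and 1670 CPM. All LPS cultures stood above all control cultures, while 1 VWF culture fell within the control range. At 16 h the control cultures had 964, 833, 774, 754 and 1270 CPM, the VWF cultures 1200, 1090, 915, 1330 and 998 CPM, and the LPS cultures 1290, 1520, 1080 and 1880 CPM. The 3 groups overlapped at this time. Between the highest group mean (1660 CPM, LPS at 3.5 h) and the lowest (810 CPM, control at 3.5 h) lay 2.05-fold, and each neighbour in the order of the 6 groups overlapped with the next. In TPM, without TMM factors, the highest mean was that of VWF at 3.5 h (2270 TPM), above LPS at 3.5 h (2110 TPM). The lowest was again control at 3.5 h (1630 TPM).

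Clec4n, the gene of the mannan receptor Dectin-2, was low at 3.5 h in all groups. Control cultures had 28.2, 50.1, 59.0, 51.2 and 47.0 CPM, VWF cultures 16.2, 31.3, 40.9, 35.7 and 26.7 CPM, and LPS cultures 21.6, 40.8, 55.4 and 61.4 CPM. The 3 groups overlapped, and replicate 1 was the lowest culture in each of them. Replicate 1 also held the lowest sum of macrophage markers in each group at 3.5 h (9620, 11700 and 8810 CPM), and the part of this in the Clec4n level was not tested. By 16 h the control cultures had reached 306, 283, 217, 227 and 108 CPM, and the LPS cultures 349, 389, 279 and 296 CPM. VWF cultures were at 24.7, 19.7, 30.0, 18.4 and 30.5 CPM at that time. Every VWF culture was thus below every control and LPS culture at 16 h, and within the range of the VWF cultures at 3.5 h.

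Clec7a, the gene of the β-glucan receptor Dectin-1, overlapped between all groups at 3.5 h in CPM. The levels were 146, 163, 213, 206 and 183 CPM in control, 153, 171, 228, 216 and 227 CPM in VWF and 126, 155, 192 and 159 CPM in LPS cultures. In TPM, LPS cultures (96.3 to 144 TPM) lay below all control (176 to 284 TPM) and VWF cultures (176 to 264 TPM) at this time. At 16 h control cultures had 233, 243, 276, 268 and 181 CPM. VWF cultures had 75.9, 66.5, 100, 96.4 and 93.6 CPM, and LPS cultures 83.4, 83.0, 80.7 and 71.7 CPM. Both stimulated groups lay below all control cultures at 16 h and overlapped with each other.

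Clec5a, the gene of the DAP12-coupled receptor MDL-1, had the lowest level of the 7 genes per length in LPS cultures at 16 h (24.4 ± 5.34 TPM, SD, n = 4). At 3.5 h it stood at 53.7, 58.3, 51.5, 73.9 and 56.2 CPM in control, 65.2, 67.7, 81.1, 101 and 84.9 CPM in VWF and 41.2, 46.7, 51.8 and 58.7 CPM in LPS cultures. The VWF and LPS cultures did not overlap, and control overlapped with both. At 16 h the levels were 108, 118, 92.5, 104 and 65.2 CPM in control, 69.8, 62.3, 73.3, 59.4 and 62.2 CPM in VWF and 46.3, 52.1, 44.3 and 36.4 CPM in LPS cultures. LPS cultures were the lowest at that time without overlap, and VWF cultures overlapped with control only through control replicate 5.

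Clec12a, the gene of the inhibitory receptor MICL, varied 2.20-fold between group means. Its level at 3.5 h was 533, 598, 459, 426 and 419 CPM in control, 534, 714, 714, 696 and 567 CPM in VWF and 818, 745, 800 and 859 CPM in LPS cultures. At 16 h it was 518, 565, 595, 546 and 828 CPM in control, 554, 649, 561, 676 and 599 CPM in VWF and 877, 1100, 938 and 1360 CPM in LPS cultures. In CPM, LPS cultures were above all others at each time, and control and VWF cultures overlapped at both. In TPM, without TMM factors, LPS cultures at 3.5 h (288 to 304 TPM) lay within the control range (248 to 333 TPM). They were then below every VWF culture (306 to 352 TPM).

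Clec2d, the gene of the NKR-P1 ligand, went from 105, 104, 74.6, 42.9 and 35.8 CPM in control cultures at 3.5 h to 294, 381, 563, 330 and 171 CPM with VWF. With LPS it reached 887, 607, 799 and 603 CPM, above every VWF culture. In TPM, without TMM factors, the VWF cultures (434 to 1180 TPM) and LPS cultures (973 to 1470 TPM) overlapped at 3.5 h. At 16 h the control cultures had 41.8, 33.6, 39.3, 38.4 and 95.8 CPM, the VWF cultures 135, 150, 94.6, 169 and 121 CPM and the LPS cultures 356, 442, 247 and 731 CPM. Control replicate 5, at 95.8 CPM, reached just above the lowest VWF culture, and the LPS group held a spread of 444 ± 207 CPM (SD, n = 4). Over the 6 groups the means of Clec2d ranged 14.5-fold.

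**Figure D2:**
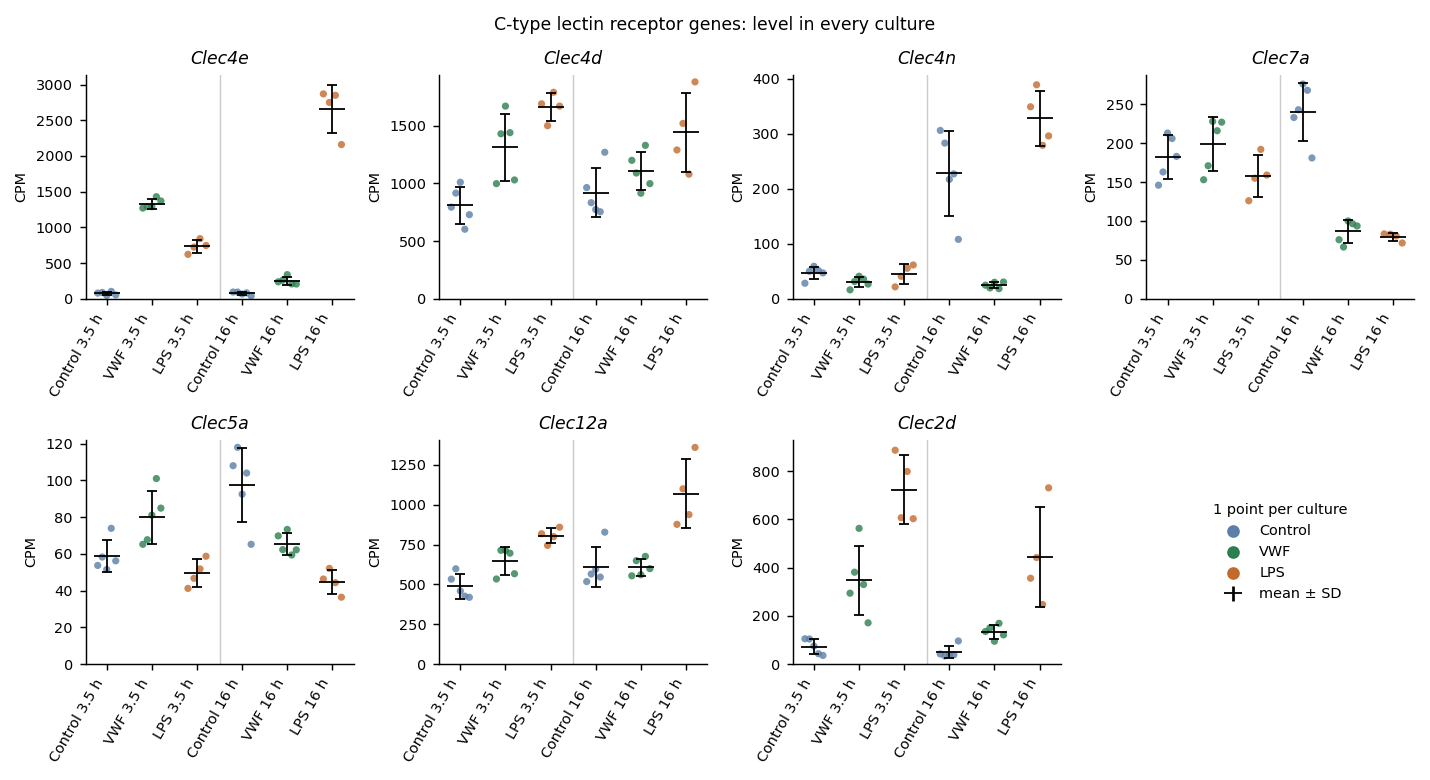
Each panel plots the level of 1 gene (CPM, linear axis from 0) in every culture of the 6 groups, with black bars for the mean ± SD (n = 5 control, 5 VWF, 4 LPS cultures per time). Clec4e is highest in VWF cultures at 3.5 h among the early groups (1270 to 1430 CPM) and in LPS cultures at 16 h among the late ones (2160 to 2870 CPM), and Clec4n is at 18.4 to 30.5 CPM in VWF cultures at 16 h.

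After 3.5 h with VWF, Clec4e and Clec2d were higher than in control and the other 5 genes were not called. Clec4e rose 18.1-fold (log2 fold change 4.18 ± 0.22 SE, edgeR quasi-likelihood test, adjusted p = 4.13e-08, n = 5 against 5) and Clec2d rose 4.82-fold (2.27 ± 0.37, edgeR adjusted p = 4e-04). These 2 of 7 genes stand beside 14.7% of the 8200 genes tested that were called in either direction, 9.1% of them higher. Clec4d (log2 fold change 0.71, edgeR adjusted p = 0.00596), Clec5a (0.46, 0.0158) and Clec12a (0.41, 0.0191) passed the p threshold below the fold limit, as 43.6% of all tested genes passed it in either direction. The p of Clec12a went to 0.0515 at most when single cultures were left out. Scaled by library size alone, Clec4d stood at 0.49, Clec5a at 0.23 and Clec12a at 0.20 (edgeR adjusted p = 0.0181, 0.16 and 0.157). Clec4n stood at -0.64 (edgeR adjusted p = 0.052), and at -0.86 (edgeR adjusted p = 0.00741) with that scaling. Clec7a was at 0.14 (edgeR adjusted p = 0.485). The median log2 fold change of the 7 genes was 0.46, against -0.01 over all tested genes. In these bulk cultures, a change in the number of cells with a transcript and a change in its level per cell cannot be told apart. The summed level of the 4 dendritic cell markers moved in the same direction, from 1.21 to 1.84 CPM in control to 13.6 to 19.4 CPM in VWF and 21.7 to 27.2 CPM in LPS cultures at 3.5 h. It was carried mostly by Xcr1, with means of 0.494, 12.7 and 22.8 CPM in these groups. Zbtb46 had means of 0.984, 2.91 and 1.67 CPM in the same groups, while Flt3 and Siglech had means of at most 0.213 CPM. The part of these markers in the result was not tested. None of the 4 genes of this list was at 0 in all cultures of a group.

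LPS for 3.5 h gave 3 called genes of 7, all higher, where 24.5% of 8190 tested genes were called and 12.8% were called higher. Clec2d rose 9.99-fold (log2 fold change 3.32 ± 0.33 SE, edgeR adjusted p = 5.52e-06, n = 4 against 5) and Clec4e 9.93-fold (3.31 ± 0.23, edgeR adjusted p = 2.25e-07). Clec4d rose 2.06-fold (1.04 ± 0.15, edgeR adjusted p = 8.34e-05), just past the fold limit. Scaled by library size alone its value was 0.51, and without control replicate 4 it was 0.96, and in neither fit was it called. Clec12a did not overlap between the groups and stood at 0.73 (edgeR adjusted p = 3.12e-04), under the fold limit, where 65.7% of all tested genes passed the p threshold alone. With library size scaling Clec12a was at 0.20 (edgeR adjusted p = 0.125). Clec4n (-0.06), Clec7a (-0.20) and Clec5a (-0.24) had edgeR adjusted p values of 0.854, 0.227 and 0.125. With library size scaling they stood at -0.61, -0.74 and -0.78 (edgeR adjusted p = 0.0633, 4.46e-04 and 2.62e-04), still under the fold limit. The median over the 7 genes was 0.73, against -0.02 over all genes. Library size scaling moved the median of all genes to -0.55 here, to -0.22 for VWF at 3.5 h and to between -0.59 and 0.46 over the 12 comparisons. Clec4e and Clec2d kept their direction and call under it in all 4 comparisons with control, and Clec4e still stood 2.77 above control here on the log2 scale.

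The VWF and LPS comparisons use the same control cultures, so the stimuli were also compared directly. At 3.5 h Clec2d was lower with VWF than with LPS by a log2 difference of -1.03 ± 0.28 SE (2.04-fold, edgeR adjusted p = 0.0108, n = 5 against 4), the only call among the 7 genes, where 11.4% of tested genes were called and 6.71% were called lower. It lay at the fold limit, and the call was lost without LPS replicate 1 (-0.92), LPS replicate 3 (-0.98) or VWF replicate 5 (-0.88), and under library size scaling (-0.74). Clec4e was 1.85-fold higher with VWF (0.89 ± 0.10, edgeR adjusted p = 3.71e-05), without overlap but under the fold limit (50.2% of tested genes passed the p threshold), and was called at 1.19 with library size scaling. Clec5a stood at 0.72 (edgeR adjusted p = 0.00205) and was also called under that scaling, at 1.02. Clec12a did not overlap either and stood at -0.29 (edgeR adjusted p = 0.0422), a value that became 0.00 with library size scaling.

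At 16 h the VWF response of the 7 genes went in both directions. Clec4n was 9.38-fold lower than in control (log2 fold change -3.23 ± 0.29 SE, edgeR adjusted p = 1.87e-05, n = 5 against 5) and Clec7a 2.81-fold lower (-1.49 ± 0.15, edgeR adjusted p = 4.5e-05). Clec4e was still 3.27-fold higher (1.71 ± 0.24, edgeR adjusted p = 4.1e-04) and Clec2d 2.68-fold higher (1.42 ± 0.28, edgeR adjusted p = 0.0036). The 4 of 7 called genes compare with 8.71% of 7798 tested genes, 4.55% higher and 4.15% lower. Without control replicate 5 all 4 were still called, with -3.41 for Clec4n, -1.58 for Clec7a, 1.55 for Clec4e and 1.79 for Clec2d. Clec5a at -0.59 (edgeR adjusted p = 0.0156) was under the fold limit (27.7% of tested genes passed the p threshold), and Clec4d (0.26, edgeR adjusted p = 0.274) and Clec12a (-0.02, edgeR adjusted p = 0.943) did not pass. The median log2 fold change of the 7 genes was -0.02, against -0.03 over all genes. The summed level of the macrophage markers was higher in VWF cultures at 16 h, at 18800 to 26000 CPM against 5870 to 17200 CPM in control. The single markers went different ways. Means of Lyz2, the most abundant (16700 against 10100 CPM), Csf1r, Adgre1, Itgam and Fcgr1 were higher with VWF. Those of Cd14 (397 against 1220 CPM) and Mertk (41.9 against 59.9 CPM) were lower, and Cd68 stood at 741 against 719 CPM. The part of these markers in the values of the 7 genes was not tested.

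LPS at 16 h called 4 genes of 7, where 27.6% of 7994 tested genes were called, 15.3% higher and 12.4% lower. Clec4e rose 35.8-fold (log2 fold change 5.16 ± 0.27 SE, edgeR adjusted p = 3.46e-07, n = 4 against 5) and Clec2d 9.08-fold (3.18 ± 0.41, edgeR adjusted p = 1.36e-04). Clec7a was 2.96-fold lower (-1.57 ± 0.13, edgeR adjusted p = 7.16e-06) and Clec5a 2.15-fold lower (-1.10 ± 0.18, edgeR adjusted p = 5.7e-04). Without control replicate 5 and LPS replicate 4, a choice made after the data had been seen, the values were 5.09, 3.21, -1.61 and -1.13 and all 4 were still called. Clec12a (0.83, edgeR adjusted p = 0.00375) and Clec4d (0.68, edgeR adjusted p = 0.0222) passed the p threshold only, as did 53.7% of all genes in either direction, calls included. Clec4n stood at 0.55 (edgeR adjusted p = 0.115). Scaled by library size, Clec4n moved to -0.05. Clec12a was then at 0.28 and Clec4d at 0.12, and neither passed the p threshold (edgeR adjusted p = 0.0659 and 0.482). The median over the 7 genes was 0.68, against -0.03 over all genes. The adjusted p of Clec4d went to 0.0583 without LPS replicate 4.

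**Figure D3:**
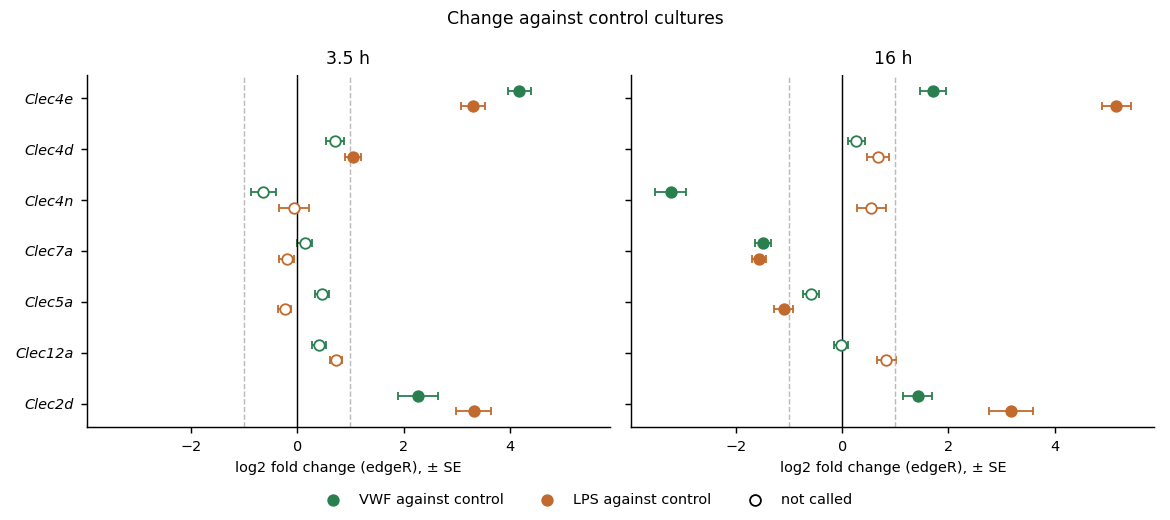
Points give the log2 fold change of each gene against control at 3.5 h (left) and 16 h (right) with bars for the SE, green for VWF and orange for LPS. Filled points are called (adjusted p under 0.05 and beyond the dashed lines at -1 and 1). Clec4e and Clec2d are called higher in all 4 comparisons, and Clec4n is called lower only with VWF at 16 h (-3.23).

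Compared directly at 16 h, VWF cultures had 10.6-fold less Clec4e than LPS cultures (log2 difference -3.40 ± 0.18 SE, edgeR adjusted p = 2.41e-07, n = 5 against 4) and 13.2-fold less Clec4n (-3.72 ± 0.20, edgeR adjusted p = 2.41e-07). Clec2d was 3.29-fold lower (-1.72 ± 0.29, edgeR adjusted p = 5.64e-04). These 3 genes stand beside 25.5% of 7574 tested genes called in either direction and 14.5% called lower. Clec12a at -0.80 (edgeR adjusted p = 5.55e-04) and Clec5a at 0.56 (edgeR adjusted p = 0.00235) did not overlap but were under the fold limit (60.5% of tested genes passed the p threshold), and Clec5a was called at 1.01 with library size scaling. Clec7a did not pass the test, at 0.13 ± 0.13 (edgeR adjusted p = 0.421), nor did Clec4d, at -0.37 (edgeR adjusted p = 0.0854). With library size scaling Clec7a stood at 0.58 (edgeR adjusted p = 0.00535) and Clec4d at 0.09 (edgeR adjusted p = 0.544). Leaving out LPS replicate 4 changed none of these calls, and Clec2d then stood at -1.37.

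Clec4n also differed between the times in control cultures, which received neither VWF nor LPS. Control cultures at 16 h had 4.86-fold more of it than at 3.5 h (log2 difference 2.28 ± 0.28 SE, edgeR adjusted p = 1.75e-04, n = 5 each), the only call of 7, where 9.08% of all tested genes were called and 4% were called higher. Clec5a (0.73, edgeR adjusted p = 0.00457) and Clec7a (0.40, edgeR adjusted p = 0.0399) passed the p threshold only, which 41.1% of all genes passed. Without control replicate 5 at 16 h, Clec4n was called at 2.46, and Clec2d went from -0.53 (edgeR adjusted p = 0.279) to -0.92 (edgeR adjusted p = 0.0279), under the fold limit. LPS cultures had 7.49-fold more Clec4n at the later time (2.91 ± 0.30, edgeR adjusted p = 4.18e-05) and 3.70-fold more Clec4e (1.89 ± 0.13, edgeR adjusted p = 4.21e-06), 2 of 7 genes beside 28.1% of all called and 14.6% called higher. Without LPS replicate 4 at 16 h these were 2.95 and 1.98, and both were called. In LPS cultures Clec2d stood at -0.68 (edgeR adjusted p = 0.0884) and was called, at -1.03, when LPS replicate 4 at 16 h was left out. Clec7a in the same cultures stood at -0.96 (edgeR adjusted p = 1.53e-04) and was called at -1.05 without LPS replicate 1 at 3.5 h. VWF cultures differed in another way between the times. Clec4e was 5.28-fold lower at 16 h (-2.40 ± 0.15, edgeR adjusted p = 9.76e-08), Clec2d 2.59-fold lower (-1.37 ± 0.27, edgeR adjusted p = 8.08e-04) and Clec7a 2.28-fold lower (-1.19 ± 0.15, edgeR adjusted p = 2.58e-05), where 21.4% of all genes were called and 12.2% were called lower. Clec4n stood at -0.27 in VWF cultures (edgeR adjusted p = 0.317).

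The change of each response with time was tested as an interaction, the difference from control at 16 h minus that at 3.5 h. For VWF 4 genes of 7 were called and all 4 were negative, with 13.5% of 8660 genes called and 7.77% called negative. The values were -2.56 ± 0.38 for Clec4n (SE, edgeR adjusted p = 2.39e-05), -2.43 ± 0.32 for Clec4e (edgeR adjusted p = 5.83e-06), -1.59 ± 0.21 for Clec7a (edgeR adjusted p = 5.55e-06) and -1.01 ± 0.21 for Clec5a (edgeR adjusted p = 6.65e-04). The Clec5a value lay at the fold limit and was not called in 8 of the 20 fits that each left out 1 culture, where it went as far as -0.92 (without VWF replicate 4 at 3.5 h), nor under library size scaling (-0.90). Control replicates 1, 3 and 5 at 3.5 h, control replicates 1, 2 and 4 at 16 h and VWF replicate 5 at 16 h were the other cultures whose removal lost that call. Without control replicate 5 at 16 h the 4 values were -2.75, -2.60, -1.69 and -1.15, and all 4 were called. For LPS the interaction was 1.87 ± 0.34 for Clec4e (edgeR adjusted p = 2.51e-04) and -1.35 ± 0.20 for Clec7a (edgeR adjusted p = 2.67e-05), with 26.3% of all genes called. Without control replicate 5 and LPS replicate 4 at 16 h they were 1.80 and -1.39, and both were called. The difference between VWF and LPS itself changed with time for Clec4e by -4.31 ± 0.20 (edgeR adjusted p = 8.73e-11) and for Clec4n by -3.20 ± 0.39 (edgeR adjusted p = 2.9e-06), beside 25% of all genes called and 14.3% called negative. Without LPS replicate 4 at 16 h these were -4.39 and -3.24, and both were called. Clec2d did not pass any of the 3 interaction tests (-0.82, -0.14 and -0.71, edgeR adjusted p = 0.225, 0.849 and 0.176). Its LPS value was 0.24 without control replicate 5 and -0.51 without LPS replicate 4 at 16 h, and neither passed (edgeR adjusted p = 0.688 and 0.419).

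Downstream of the receptors, 23 genes of adaptors, kinases and phosphatases were listed. After 3.5 h with VWF 6 of them were called higher and 1 lower of 23 tested, where 14.7% of all genes were called and 9.1% were higher. The median log2 fold change was 0.28 against -0.01 over all genes. Syk, the kinase that the activating receptors share, had 214, 251, 238, 317 and 274 CPM in control cultures at 3.5 h. It rose to 738, 672, 637, 599 and 902 CPM with VWF, and had 294, 421, 380 and 319 CPM with LPS. Every VWF culture was above every other. The log2 fold change of Syk was 1.47 ± 0.14 with VWF (edgeR adjusted p = 4.6e-06) and 0.46 with LPS (edgeR adjusted p = 0.0104). The direct difference was 1.03 ± 0.15 (edgeR adjusted p = 2.52e-04). In TPM, without TMM factors, the Syk mean was lower with LPS (77.2 TPM) than in control (90.5 TPM) at 3.5 h. Their ranges overlapped (63.1 to 98 and 72.7 to 123 TPM), and VWF cultures (163 to 296 TPM) still lay above both. Malt1, a paracaspase, rose with both stimuli (2.82 and 2.74, edgeR adjusted p = 6.58e-07 and 2.88e-07), as did the kinase gene Src (3.48 and 3.48). Inpp5d, which encodes the lipid phosphatase SHIP1, fell with both (-1.02 and -1.93). The other call with LPS at 3.5 h was Bcl10, at 1.08 (edgeR adjusted p = 2.81e-06), which made 4 higher and 1 lower of 23 (24.5% of all genes called, 12.8% higher) with a median of 0.13 against -0.02.

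By 16 h with VWF, Syk had 209, 211, 265, 170 and 239 CPM beside 183, 200, 204, 211 and 115 CPM in control, and LPS cultures had 618, 509, 652 and 348 CPM. The VWF and control cultures overlapped (0.24, edgeR adjusted p = 0.389), and the LPS cultures did not in CPM (1.56 ± 0.23, edgeR adjusted p = 2.81e-04). In TPM the LPS cultures (64.3 to 165 TPM) overlapped with control (26.2 to 71.9 TPM) and VWF cultures (42.6 to 86.2 TPM). Fcer1g, the adaptor gene for Mincle, MCL and Dectin-2, had 793, 866, 943, 798 and 667 CPM in control, 1320, 1400, 1360, 1550 and 1130 CPM in VWF and 2150, 2510, 2170 and 2120 CPM in LPS cultures at 16 h. The 3 groups of Fcer1g were apart in CPM, with log2 fold changes of 0.72 for VWF (edgeR adjusted p = 0.00111, under the fold limit) and 1.48 ± 0.12 for LPS (edgeR adjusted p = 5.98e-06). In TPM the VWF (3760 to 4770 TPM) and LPS cultures (4200 to 5890 TPM) overlapped, both above control (1620 to 3390 TPM). Of the listed genes 2 were called higher and 1 lower among 20 tested with VWF, and 7 higher and none lower among 21 tested with LPS. Over all genes 8.71% were called with VWF and 27.6% with LPS, 15.3% higher in the latter. The medians were 0.06 and 0.30 against -0.03 over all genes in each. The higher genes with VWF included the kinase gene Fgr (1.72), and Vav3, an exchange factor gene, was lower (-1.26). With LPS the higher genes included Src (2.49) and Malt1 (1.75) beside Syk and Fcer1g. Between VWF and LPS 7 of 22 tested genes were called at 16 h, all lower with VWF, where 25.5% of all genes were called and 14.5% were lower. They were led by Malt1 (-3.02), Src (-1.54) and Lyn (-1.48). Ptpn6, which encodes SHP-1, stood at -1.33 and Syk at -1.27 in the same comparison. Malt1 did not pass the filter in the comparison of VWF with control at 16 h. Tyrobp, the DAP12 gene, was between -0.18 and 0.00 in the 4 comparisons with control, and Card9 between -0.61 and -0.09, with no call. Ptpn11, the SHP-2 gene, was not called in any of the 4 either, with values between -0.04 and 0.37.

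**Figure D4:**
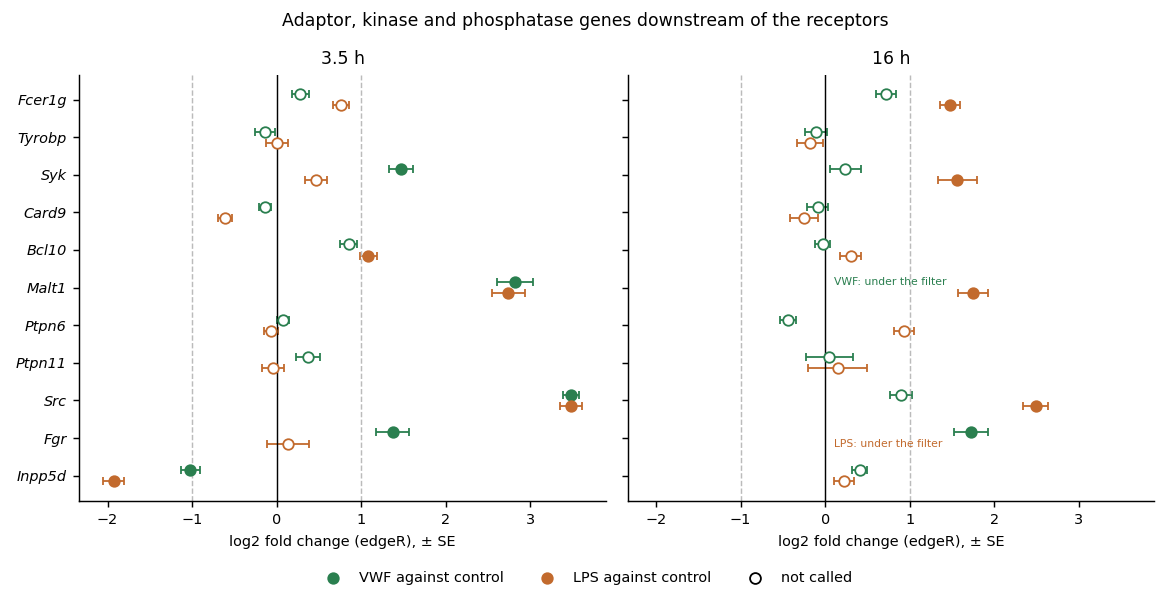
Points give the log2 fold change against control (bars are the SE) for 11 of the 23 listed genes downstream of the receptors at 3.5 h (left) and 16 h (right), green for VWF and orange for LPS, filled when called (Malt1 with VWF and Fgr with LPS at 16 h were under the filter). Syk is called with VWF at 3.5 h (1.47) and with LPS at 16 h (1.56), and Tyrobp and Card9 are called in no comparison.

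Of 22 other C-type lectin genes on chromosome 6, only 4 to 6 passed the filter in a comparison with control. Cd69, the gene of an activation antigen that lies between Clec2d and Clec12a, had 1.54, 1.74, 0.613, 1.22 and 0.478 CPM in control cultures at 3.5 h. It reached 126, 221, 203, 295 and 163 CPM with VWF and 1040, 808, 1050 and 1190 CPM with LPS, which gave log2 fold changes of 7.50 ± 0.40 (edgeR adjusted p = 4.5e-08) and 9.83 ± 0.38 (edgeR adjusted p = 2.32e-09). Cd69 was lower with VWF than with LPS at 3.5 h (-2.31 ± 0.22, edgeR adjusted p = 1.06e-05). Olr1, the gene of the oxidised lipoprotein receptor LOX-1, was also called with both stimuli at 3.5 h (3.61 and 2.63), which made 2 of 6 higher with VWF, beside 9.1% of all genes. With LPS there were 3 of 6, beside 12.8% of all genes, Clec4a1 (1.12) being the third. At 16 h Clec4a1, a gene of the DCIR family, had 33.0, 36.7, 40.7, 39.0 and 16.4 CPM in control, 217, 244, 201, 142 and 212 CPM in VWF and 409, 409, 362 and 278 CPM in LPS cultures. The groups of Clec4a1 did not overlap in CPM, with log2 fold changes of 2.60 ± 0.25 (edgeR adjusted p = 3.16e-05) and 3.48 ± 0.27 (edgeR adjusted p = 3.76e-06). In TPM the VWF (214 to 441 TPM) and LPS cultures (308 to 578 TPM) overlapped, both above control (22.4 to 82 TPM). Clec4b1 was lower in both (-2.32 and -3.27), and Clec4a3 (2.36) and Cd69 (9.08) were higher with LPS. That made 1 higher and 1 lower of 4 tested with VWF (8.71% of all genes called) and 3 higher and 1 lower of 5 with LPS (27.6% of all genes called).

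Of 20 further C-type lectin receptor genes elsewhere in the genome, 5 were tested in each comparison with control. Thbd, the thrombomodulin gene, was the only one of 5 called at 3.5 h (14.7% of all genes called with VWF, 24.5% with LPS) and was lower with VWF (-1.72 ± 0.34, edgeR adjusted p = 0.00139) and with LPS (-1.62 ± 0.26, edgeR adjusted p = 2.58e-04). At 16 h Clec10a, a galactose-type lectin gene, was lower with both (-1.76 and -3.08), and Cd302 was higher with both (1.92 and 1.26). The mannose receptor gene Mrc1 (-3.32) and Cd93 (-2.22) were lower with LPS only by call, and both were higher in VWF than in LPS cultures at 16 h (2.43 ± 0.28 and 1.45 ± 0.14, edgeR adjusted p = 4.22e-05 and 1.51e-05). These were 1 higher and 1 lower of 5 with VWF and 1 higher and 3 lower of 5 with LPS, beside 8.71% and 27.6% of all genes called. The median of the tested genes of this list was -0.82 with VWF and -2.22 with LPS at 16 h, against -0.03 over all genes in each.

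The 28 cultures were also used to find the genes whose log2 CPM followed each receptor gene most closely, among 8867 genes that reached 10 TPM in any culture. Treatment and time are shared by all points, so these Pearson correlations are descriptions. For Clec4e they included Traf1 (0.971) and Fcgr2b (0.969), and for Clec2d Slfn2 (0.959) and Rhog (0.956). Clec12a was closest to Nrbp1 (0.955), Pttg1 (0.952) and Selenot (0.952), and Clec4d to Magohb (0.937), Psmd7 (0.934) and Anp32a (0.928). For Clec7a the genes were Tmem71 (0.908), Ccl6 (0.908) and Atp6v0d2 (0.905), for Clec4n Spp1 (0.904), Serpinb1a (0.899) and Pxmp2 (0.898). Clec5a had the weakest partners, Galnt10 (0.837), Spn (0.791) and Rin3 (0.775). Among the 7 genes themselves the highest value was 0.91, between Clec4d and Clec2d, which lie in different clusters of chromosome 6. The direct neighbours Clec4d and Clec4e had 0.67, and Clec4n had -0.04 with Clec4d and 0.05 with Clec4e.

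Upstream sequence is shown for Clec4e and Clec2d, which were higher in all 4 comparisons with control, for Clec7a, which was lower at 16 h with both stimuli, and for Clec4d, the abundant neighbour of Clec4e. RefSeq start sites in GRCm38.p6 were matched for 6 of the 7 genes, and no window for Clec4n was used here. The windows are the 250 bases before the start, at chr6:123289872-123290121 on the minus strand for Clec4e, chr6:129180365-129180614 on the plus strand for Clec2d, chr6:129472780-129473029 on the minus strand for the first of the 2 Clec7a starts, and chr6:123261857-123262106 on the plus strand for Clec4d. Each is printed in the direction of transcription, 5′ to 3′, and capitals mark a match to a searched motif on either strand.
Clec4e: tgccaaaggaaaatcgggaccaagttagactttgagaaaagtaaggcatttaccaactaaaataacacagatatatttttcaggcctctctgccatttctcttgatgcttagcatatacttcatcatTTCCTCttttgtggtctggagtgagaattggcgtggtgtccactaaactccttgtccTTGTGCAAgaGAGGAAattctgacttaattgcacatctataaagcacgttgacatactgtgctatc
Clec2d: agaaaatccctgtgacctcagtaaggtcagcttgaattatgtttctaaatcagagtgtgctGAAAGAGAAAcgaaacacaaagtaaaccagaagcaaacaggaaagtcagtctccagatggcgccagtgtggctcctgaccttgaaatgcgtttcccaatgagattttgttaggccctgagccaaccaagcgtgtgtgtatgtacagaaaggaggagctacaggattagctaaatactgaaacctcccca
Clec7a: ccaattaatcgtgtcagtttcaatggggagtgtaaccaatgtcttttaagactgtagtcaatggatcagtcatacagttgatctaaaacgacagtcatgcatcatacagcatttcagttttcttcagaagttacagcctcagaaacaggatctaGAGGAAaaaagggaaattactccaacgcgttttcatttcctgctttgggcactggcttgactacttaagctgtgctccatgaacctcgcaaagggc
Clec4d: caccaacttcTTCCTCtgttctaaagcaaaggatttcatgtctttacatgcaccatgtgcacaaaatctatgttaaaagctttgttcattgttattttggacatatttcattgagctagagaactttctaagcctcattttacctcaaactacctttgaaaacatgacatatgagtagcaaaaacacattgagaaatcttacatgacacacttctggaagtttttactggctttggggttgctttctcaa

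The 7 motifs searched on both strands were the PU.1 core GAGGAA, the C/EBP motif TTGCNNAA, the AP-1 motif TGANTCA, the interferon-stimulated response element (2 GAAA runs with 2 bases between them), the cyclic AMP response element TGACGTCA, the GAS motif TTCNNNGAA and the NF-κB consensus. The Clec4e window held the PU.1 core at 123 and 56 bases and a C/EBP match, TTGTGCAA on the strand shown, at 66 bases before the start. The Clec2d window held the interferon-stimulated response element GAAAGAGAAA at 189 bases before the start. Clec7a had the PU.1 core at 96 bases and Clec4d at 240 bases. No matches overlapped in these windows. Among 32851 RefSeq windows of the same length the PU.1 core was present in 23.3%, the C/EBP motif in 9.56% and the interferon-stimulated response element in 2.98%. None of these 4 windows held the NF-κB consensus, which was in 7.25% of all windows. A match is a run of letters and was not tested as a binding site.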

How the data were processed

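RNA was measured in 28 BMDM cultures, grouped by their labels. The authors aligned paired reads (150 bases) with STAR to GRCm38, and the deposited table holds whole-number counts per Ensembl gene with no normalization or filter. Annotation, strand setting and treatment of multiply mapped reads were not given in the sources read here. Symbols and exon lengths came from GENCODE M21, which matched 54495 of 54532 identifiers.

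TPM was computed with exon lengths, and CPM with TMM factors (0.729 to 1.19) over all cultures. Genes at 10 TPM or more in any culture of a comparison were tested with edgeR 4.0.16 (R 4.3.3, glmQLFit robust, glmQLFTest), fitted on the groups compared, with Benjamini-Hochberg adjustment over all tested genes. Calls needed an adjusted p under 0.05 and a log2 fold change over 1 in size. The 12 comparisons were the 3 pairs of groups at each time, each group between times, and 3 interactions with time. Correlations used log2 CPM with a prior count of 2. The test was checked on simulated data. Alternatives were DESeq2 1.42.0, median-of-ratios and library size scaling, filterByExpr, no filter, all groups in one fit, no fold threshold, the replicate number as a block, Spearman correlations, and leaving out each culture in turn. Leaving out 2 cultures together was chosen after seeing the data.

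The 7 genes and all lists were chosen with earlier results of these data known. The text names the 7 genes, of each list at most 4 called genes per comparison with the largest change, the effector genes Fcer1g, Tyrobp, Syk, Card9, Bcl10, Malt1, Ptpn6 and Ptpn11, and the 3 genes most like each of the 7. Some genes that this rule selects are not reported here.

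Same-numbered cultures deviated together in every pair (r of 0.16 to 0.78 over 4 pairs) only for VWF against LPS at 16 h. No culture duplicated another, as the chi-square divided by its degrees of freedom was at least 15.8 over 52 pairs.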

Additional observations from a re-analysis of the deposited data

Results flagged for a closer look

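In LPS cultures at 16 h, Clec4e was 2160 CPM in replicate 4 and 2750 to 2870 CPM in the other 3, which put replicate 4 far from its group by Dixon's criterion. The same criterion marked Clec2d in control replicate 5 at 16 h, at 95.8 CPM against 33.6 to 41.8 CPM in the other 4. These were 2 of the 42 groups of values examined, and chance alone marks about 1 in 20. Both cultures also had the lowest summed macrophage markers of their groups (10000 and 5870 CPM), and the part of this in the values was not tested.

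The response to VWF differed between 3.5 h and 16 h in the interaction test for Clec4n (-2.56 on the log2 scale), Clec4e (-2.43), Clec7a (-1.59) and Clec5a (-1.01), beside 13.5% of all genes called. The Clec5a call lay at the fold limit and was lost in some fits that left out 1 culture and under library size scaling (-0.90). For LPS the response differed for Clec4e, which was higher against control by 1.87 more at 16 h, and for Clec7a (-1.35), beside 26.3% of all genes called. The difference between VWF and LPS changed with time for Clec4e (-4.31) and Clec4n (-3.20), beside 25% of all genes called.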

How the results depend on the processing

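DESeq2, median-of-ratios factors, filterByExpr, no filter and a single fit of all groups changed no call of the 7 genes in any of the 12 comparisons, and no call reversed its direction under any alternative. Without the fold threshold counts rose in all comparisons but VWF between the times and the VWF interaction. They went past 1.5 times the main count at 5 in place of 2 for VWF against control at 3.5 h, 4 in place of 1 for VWF against LPS at 3.5 h, 5 in place of 3 for VWF against LPS at 16 h, 3 in place of 1 for control between the times and 4 in place of 2 for LPS between the times, and elsewhere to 3 to 6. Library size scaling gave 2 called genes in place of 1 for VWF against LPS at 3.5 h, Clec4e and Clec5a in place of Clec2d. It also gave 2 in place of 3 for LPS against control at 3.5 h (Clec4d lost), 4 in place of 3 for VWF against LPS at 16 h (Clec5a gained), 3 in place of 2 for LPS between the times (Clec7a gained, -1.02) and 3 in place of 4 for the VWF interaction (Clec5a lost). The fits that left out 1 culture gave 0 to 1 called genes for VWF against LPS at 3.5 h, 2 to 3 for LPS against control at 3.5 h, 2 to 3 for LPS between the times and 3 to 4 for the VWF interaction. They gave the main count in the other 8 comparisons.

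With the replicate number as a block, VWF against LPS at 3.5 h had 0 called genes in place of 1, as Clec2d moved to -0.88. There the numbers did not pair the cultures (correlations from -0.15 to 0.45). Where they did, for VWF against LPS at 16 h, the block changed no call, and it changed no other call elsewhere.

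By Spearman's rho, between 0 (Clec4n) and 2 (Clec5a and Clec2d) of the 3 genes most like each receptor were shared with those by Pearson's r. Depth did not limit these genes, whose lowest raw count was 840. Values near the fold limit (Clec4d with LPS at 3.5 h, Clec2d for VWF against LPS at 3.5 h, Clec5a in the VWF interaction) rest on 4 or 5 cultures a group.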

Other observations

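The summed level of the 8 neutrophil markers was between 4.76 and 38 CPM in all cultures, and Ly6g was at 0 in all cultures of 4 of the 6 groups. The summed levels of the T cell, B cell and erythroid markers were at most 0.929, 0.433 and 0.0831 CPM, and those of the natural killer cell and the mast cell and basophil markers at most 1.62 and 2.9 CPM. The sum of the 3 fibroblast markers ranged from 16.3 to 380 CPM, with a wide range inside every group, and so reached the CPM range of several of the 7 genes. Its part in their levels was not tested. The dendritic cell markers were at 12.9 to 30.1 CPM in LPS cultures at 16 h, again mostly Xcr1 (mean 20.2 CPM), against 0.607 to 1.95 CPM in control and 0.913 to 2.92 CPM in VWF cultures.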
